A study of Mus musculus with 6 samples.

Results

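Serpins are a family of protease inhibitors and related carrier proteins that share 1 fold, and the liver secretes many of them into plasma. The family was taken as every gene whose mouse symbol starts with Serpin, leaving out symbols that mark a pseudogene with -ps, with or without a number after it. That gave 39 of the 21512 genes in the deposited table, 21 of them in clade A, 9 in clade B, 2 each in clades E and F, and 1 each in clades C, D, G, H and I. Serpina3h passed the rule by its symbol, although GENCODE lists its transcripts as non-coding.

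RNA was measured by sequencing whole livers of C57BL/6J mice. For 12 weeks every mouse was fed a high-fat diet and given carbon tetrachloride, a liver toxin, as a model of steatohepatitis with fibrosis. Every 3 days over that period, 3 of them received anti-PD-1 antibody, which blocks a checkpoint receptor of T cells, and the other 3 received an isotype antibody as control. The treatment entry of anti-PD-1 replicates 2 and 3 carries another number after "PD", while the titles name PD-1 for all 3. Sex and age are not given in the sources used here, and the control mice were themselves on diet and toxin, so no healthy liver enters the comparison. The comparison of both groups asks how gene expression in the whole liver differs with PD-1 blocked. Since the whole organ was sequenced, fewer cells of a type and less RNA per cell cannot be told apart.

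Most serpins are suicide substrates. A protease cleaves an exposed stretch near the C-terminal end, the reactive centre loop. The serpin then changes shape and distorts the active site of the bound enzyme. The loop's sequence sets which protease is caught. Clade A holds the antitrypsin and antichymotrypsin proteins and the carriers of cortisol and thyroid hormone. Clades C, D, E and F hold inhibitors of thrombin and plasmin, among others, clade G the C1 inhibitor of complement, clade H a collagen chaperone, and clade B mostly proteins that stay inside cells.

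In the mouse, alpha-1-antitrypsin is encoded by several neighbouring gene copies, and the stretch printed here is where the copies differ most. The coding sequences of Serpina1a to Serpina1e, all on chromosome 12, were 96.3 to 98.5% identical over 10 pairs, with 86 of 1239 aligned positions variable. The 60 coding bases with the most variable positions (18 of them, bases 1101 to 1160 of the coding sequence) lie at 91.3% of its length, in the part that encodes the reactive centre loop. Capitals mark the positions at which the 5 copies are not all the same, in the GENCODE M21 (GRCm38) transcripts, 5′ to 3′ on the coding strand.
Serpina1a: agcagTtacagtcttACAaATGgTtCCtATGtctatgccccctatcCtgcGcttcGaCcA
Serpina1b: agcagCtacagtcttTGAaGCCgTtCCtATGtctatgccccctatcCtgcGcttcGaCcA
Serpina1c: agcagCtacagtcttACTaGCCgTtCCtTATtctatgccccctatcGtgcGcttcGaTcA
Serpina1d: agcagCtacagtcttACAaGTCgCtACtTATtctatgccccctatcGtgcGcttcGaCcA
Serpina1e: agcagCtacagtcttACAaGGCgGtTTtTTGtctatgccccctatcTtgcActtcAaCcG

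The copies differed most in the part that meets the protease. Over whole transcripts they were harder to tell apart: 61.0% of the 100-base windows of the Serpina1a transcript occurred unchanged in a transcript of another gene, against 58.5% for Serpina1c, 29.3% for Serpina1d, 20.6% for Serpina1b and 14.8% for Serpina1e. How the reads of these windows were divided among the copies depends on the counting, so the single copies carry that uncertainty and their sum is given too. Serpina11 shared 42.4% of its windows with the gene model Gm28577. The other 33 members shared at most 6.09% of their windows, and 25 shared none.

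Values are CPM of a library whose size was scaled by the trimmed-mean (TMM) method, called units here. Recovered depth was 15528364 to 20779319 reads a library, of which serpin genes took 336996 to 569700. Hepatocyte markers were abundant in every library, with albumin (Alb) at 46646 to 69086 units. Anti-PD-1 replicate 1 stood apart from the other 5 libraries in its immune cell RNA: the summed level of 14 T and cytotoxic cell markers was 70.4 units there, against 10.7 and 15 in anti-PD-1 replicates 2 and 3 and 4.52 to 7.01 in controls. The summed level of 10 measured neutrophil markers was 55 units there against 8.79 to 13.9 in the other libraries, and that of 9 infiltrating monocyte markers 874 against 136 to 272.

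Of the 39 members, 28 had at least 1 unit in at least 3 libraries and were tested, and each of these 28 had at least 1 unit in all 6 libraries. No member passed the threshold (an adjusted p of 0.05 over all 13990 genes tested, limma), where 0.00715% of tested genes did. At an unadjusted p under 0.05 by limma, 2 members were higher after anti-PD-1, Serping1 and Serpina3f, and 0 were lower, against 5.04% of all tested genes in the higher and 6.24% in the lower direction. The same 2 members were the only ones whose 3 anti-PD-1 values all lay above the 3 control values, which 7.13% of tested genes showed, and in 0 members did all lie below, as in 9.98% of tested genes. The counts of higher members are near these background shares. edgeR with the authors' factors called 0 members and 0.00715% of genes, and DESeq2 called 0 members and 1.83% of genes.

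Fold changes were positive in 20 of the 28 tested members and negative in 8, with a median of 0.12 on the log2 scale, beside 7062 positive and 6928 negative and a median of 0 over all tested genes. All 5 tested antitrypsin copies and all 5 tested antichymotrypsin genes were among the positive members, and the copies of a group share sequence and neighbourhood. Among the 5 tested clade B members 2 were positive and 3 negative. Without anti-PD-1 replicate 3 the median over the 28 members was 0.01, with 15 positive. Leaving out anti-PD-1 replicate 1 gave 0.22, with 19 positive. The family's share of the deposited total was 2.21, 1.9 and 1.92% in controls, against 1.85, 2.49 and 2.74% with anti-PD-1, so replicate 1 lay below and replicates 2 and 3 above all controls (exact permutation test, two-sided, p = 0.4, smallest possible 0.1).

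**Figure D1:**
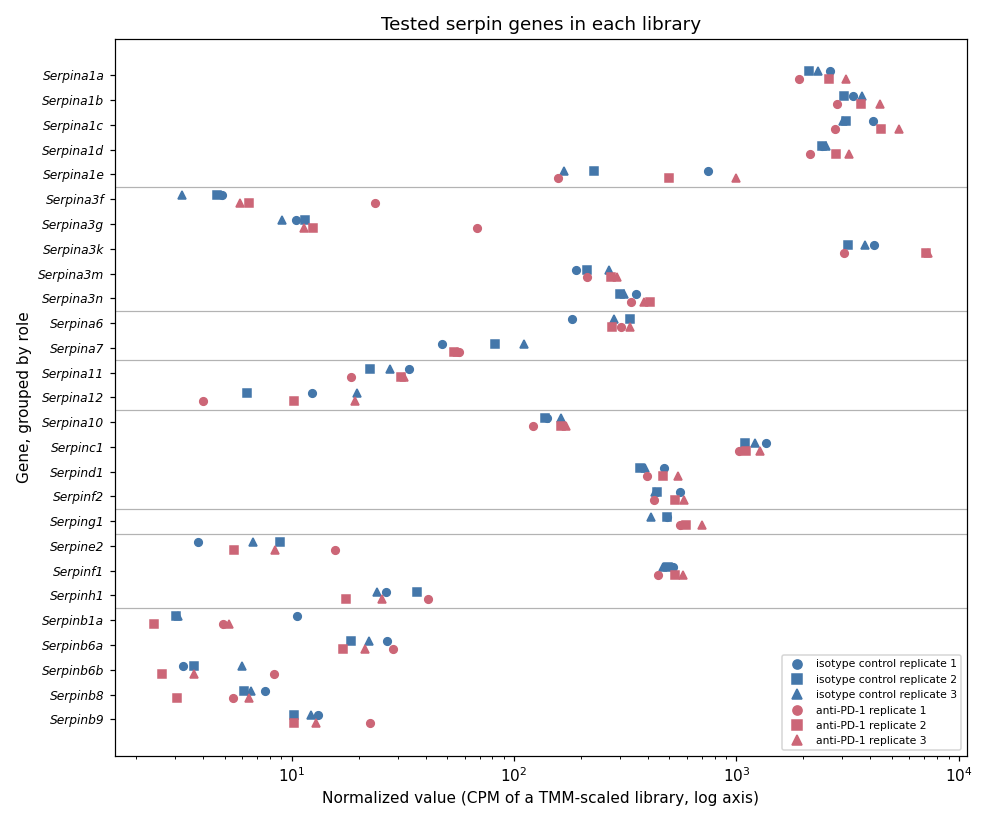
Value of 27 of the 28 tested serpin genes (rows, grouped by role) in each library, in CPM of a TMM-scaled library on a log axis. Blue marks are isotype control and red marks anti-PD-1 mice, and the shape gives the replicate number. The antitrypsin copies and Serpina3k lie at the right, and in most rows the colours interleave.

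Alpha-1-antitrypsin is the main inhibitor of neutrophil elastase in plasma. Its 5 copies together with Serpina3k made up 75.6 to 82.8% of all serpin signal. Per kilobase of transcript model, Serpina1c had the highest mean level of the family in controls (2513 units) and with anti-PD-1 (3094). In controls Serpina1b (1907), Serpina3k (1807), Serpina1d (1762) and Serpina1a (1739) followed closely, while Serpina1e had 242. With anti-PD-1 Serpina3k came next to Serpina1c at a mean of 2829.6, from 1482, 3475 and 3532 in replicates 1 to 3, so its place in the order differed between libraries. Summed over the 5 copies, the level was 13297, 10949.7 and 11702 units in controls, against 9823, 14035 and 17133 with anti-PD-1. Anti-PD-1 replicate 1 was thus the lowest and replicate 3 the highest of all 6 libraries, and the groups overlapped. The log2 difference of the sum was 0.16 (exact permutation test, two-sided, p = 0.6), and it was -0.02 without anti-PD-1 replicate 3.

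Each of the 5 copies had its lowest value in anti-PD-1 replicate 1 and its highest in anti-PD-1 replicate 3. Serpina1c was at 4118, 3114 and 3031 units in controls, against 2762, 4462 and 5410.2 with anti-PD-1 (log2 fold change 0.26 ± 0.29 SE, limma adjusted p = 0.766). Serpina1b was at 3361, 3062 and 3655 units in controls, against 2844, 3649 and 4407 with anti-PD-1. Neither group of values stood clear of the other in these copies. Serpina1d was the steadiest in controls, at 2430.3, 2417 and 2523 units, and had 2154, 2817 and 3222 after anti-PD-1. Serpina1a had 2641, 2127 and 2327 units in controls, against 1906, 2609 and 3097 with anti-PD-1. Their 95% intervals for the log2 fold change ran from -0.33 to 0.59 for Serpina1d and from -0.43 to 0.59 for Serpina1a. With 3 mice a group, changes in either direction within these intervals remain compatible with the values.

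Serpina1e varied far more than the other 4 copies. It was at 747, 229.8 and 167 units in controls, where replicate 1 was high, and at 158, 498 and 998 after anti-PD-1, where replicate 1 was low. The highest library had 6.31 times the value of the lowest, against 1.5 to 1.96 times for the other 4 copies. It made up 1.43 to 5.82% of the summed antitrypsin signal, while each of the other copies kept a share between 18.1 and 31.8%. The spread within each group (SD 318 and 422 units) exceeded the difference between the means of 381 and 551 units (limma adjusted p = 0.836).

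**Figure D2:**
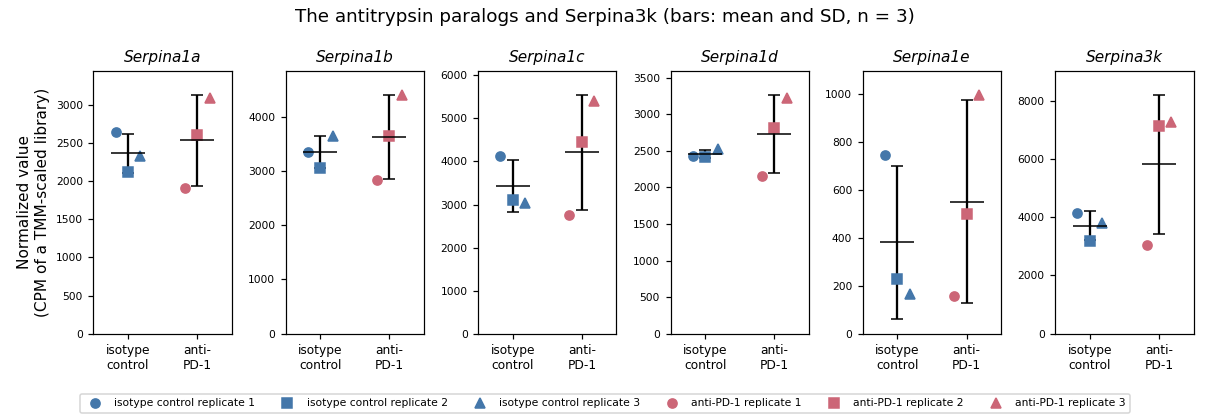
Values of the 5 alpha-1-antitrypsin copies and of Serpina3k in each mouse, in CPM of a TMM-scaled library, with mean and SD (n = 3) for each group and axes that start at 0. Anti-PD-1 replicate 1 (red circle) is the lowest library in all 6 panels, and Serpina1e spreads from 158 to 998 units.

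The antichymotrypsin gene of other mammals corresponds in the mouse to a cluster of Serpina3 genes. Coding sequences of 7 of them were 73.5 to 91.7% identical over 21 pairs, so these are easier to tell apart than the antitrypsin copies. Serpina3g, with a shorter coding sequence (744 bases), and the non-coding Serpina3h were left out of that comparison. All 5 tested genes of this group had positive log2 fold changes, and none passed the test. Their median was 0.55, and 0.34 to 0.35 with any 1 of the anti-PD-1 libraries left out. Serpina3k, the most abundant of them, is expressed in hepatocytes. It was at 4164, 3189 and 3799.9 units in controls, against 3049, 7147 and 7266 with anti-PD-1. Replicate 1 of the anti-PD-1 group lay below every control, while replicates 2 and 3 lay well above them. Its log2 fold change was 0.55 ± 0.36 (SE; limma adjusted p = 0.604, and 0.306 by DESeq2). With anti-PD-1 replicate 1 left out it was 0.96, with a limma adjusted p of 0.103, in a fit that called 0.214% of genes and 0 members. It was 0.35 (adjusted p = 0.824) with replicate 2 and 0.34 (adjusted p = 0.828) with replicate 3 left out.

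Serpina3n, which rises in the acute phase response, was at 353, 301 and 313 units in controls, against 337, 408 and 383 with anti-PD-1 (log2 fold change 0.22 ± 0.12 SE, limma adjusted p = 0.528). Serpina3m was at 190.3, 214 and 267 units in controls, against 214, 273 and 290.4 with anti-PD-1 (adjusted p = 0.659). Both overlapped between groups and varied less than Serpina3k, with a highest library 1.35 and 1.53 times the lowest. Summed over all 9 Serpina3 genes in the table, the level was 4723, 3724 and 4393 units in controls, against 3695, 7848 and 7957 with anti-PD-1 (log2 difference 0.53, exact permutation test, two-sided, p = 0.4). Leaving out anti-PD-1 replicate 1, 2 or 3 gave a difference of 0.89, 0.35 or 0.34. Serpina3k alone made up 82.5 to 91.3% of that sum.

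Serpina3f and Serpina3g are neighbours in this cluster. Serpina3g, also called Spi2A, is known from activated lymphocytes and macrophages, where it inhibits lysosomal cathepsins. It was at 10.5, 11.5 and 9.05 units in controls, against 68.5, 12.5 and 11.4 with anti-PD-1, which is 194, 213 and 180 reads against 1427, 187 and 221. Serpina3f was at 4.86, 4.6 and 3.22 units in controls, against 23.7, 6.46 and 5.85 with anti-PD-1, which is 90, 85 and 64 reads against 493, 97 and 113. In both genes 1 library, anti-PD-1 replicate 1, was far above the other 5, and only for Serpina3f did the other 2 anti-PD-1 libraries also lie above all controls.

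The log2 fold change of Serpina3f was 1.13 ± 0.48 (SE; limma adjusted p = 0.434, with 0.109 by DESeq2 and 0.362 by edgeR). With anti-PD-1 replicate 1 left out it was 0.51 (adjusted p = 0.334). That of Serpina3g was 1.03 ± 0.60 (SE; limma adjusted p = 0.566), or 0.20 (adjusted p = 0.596) with the same library left out. The same library held the highest T cell, neutrophil and monocyte marker sums given above, and Cd8a, a marker of cytotoxic T cells, was at 11.7 units there against 2.13 and 2.07 in the other anti-PD-1 libraries and 0.352 to 0.701 in controls. The part of these cells in the Serpina3f and Serpina3g values was not tested. Both transcripts shared little sequence with other genes (3.58% and 4.64% of 100-base windows).

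The 250 bases before the start sites of both genes are shown because the genes were high in the same library, together with those of Serpinb9, an inhibitor of granzyme B that was also highest there. They are from RefSeq on GRCm38.p6, 5′ to 3′ on the gene's strand, which is the plus strand for all 3, at chr12:104214294-104214543 (Serpina3f), chr12:104235897-104236146 (Serpina3g) and chr13:33004291-33004540 (Serpinb9). Capitals mark matches to the STAT-type letters TTCNNNGAA or the interferon-response letters GAAANNGAA, read on both strands, which overlap in Serpina3f.
Serpina3f: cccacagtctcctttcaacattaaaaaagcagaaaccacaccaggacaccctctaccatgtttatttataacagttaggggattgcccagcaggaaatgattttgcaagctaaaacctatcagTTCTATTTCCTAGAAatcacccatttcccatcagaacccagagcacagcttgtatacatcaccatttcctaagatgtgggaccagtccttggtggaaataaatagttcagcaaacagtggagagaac
Serpina3g: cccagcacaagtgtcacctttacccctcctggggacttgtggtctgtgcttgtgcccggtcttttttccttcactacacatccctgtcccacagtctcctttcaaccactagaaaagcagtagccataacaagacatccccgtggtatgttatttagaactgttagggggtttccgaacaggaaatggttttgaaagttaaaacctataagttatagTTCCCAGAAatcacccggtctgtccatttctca
Serpinb9: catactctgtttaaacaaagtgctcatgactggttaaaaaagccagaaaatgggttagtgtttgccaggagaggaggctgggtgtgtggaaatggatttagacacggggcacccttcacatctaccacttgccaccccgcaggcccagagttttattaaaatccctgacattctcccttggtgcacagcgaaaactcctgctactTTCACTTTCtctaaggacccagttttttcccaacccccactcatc

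The match TTCNNNGAA began 121 bases before the Serpina3f start and 33 bases before that of Serpina3g. GAAANNGAA matched 127 bases before the Serpina3f start and 45 bases before that of Serpinb9. Among 32851 promoter windows of this length, 7.0% held TTCNNNGAA and 7.1% held GAAANNGAA. Of the 35 windows of the 30 members found in that table, some of which overlap, 8 and 7 held them. These counts hold the same sites more than once: in overlapping windows of Serpina3f for both, and of Serpina11 for TTCNNNGAA. The letters TTGCNNAA, of C/EBP type, were in 12 of the 35 windows and 9.6% of all. These 12 also count genes more than once, through overlapping windows of Serpina3f, Serpina7 and Serpinb2. They include windows of the antitrypsin copies Serpina1b, Serpina1d and Serpina1e, which share sequence. Of the 28 tested members, 8 were highest in anti-PD-1 replicate 1, and only some of their windows are printed here. Among those not printed, Serpinb6b, Serpine2 and Serpinh1 held neither TTCNNNGAA nor GAAANNGAA, and a Serpinb6a window held both. A match describes letters and shows no binding. GAAANNGAA is a shortened core of the interferon-response element, chosen after a longer pattern had been searched, and it matches more windows than the longer pattern did.

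**Figure D3:**
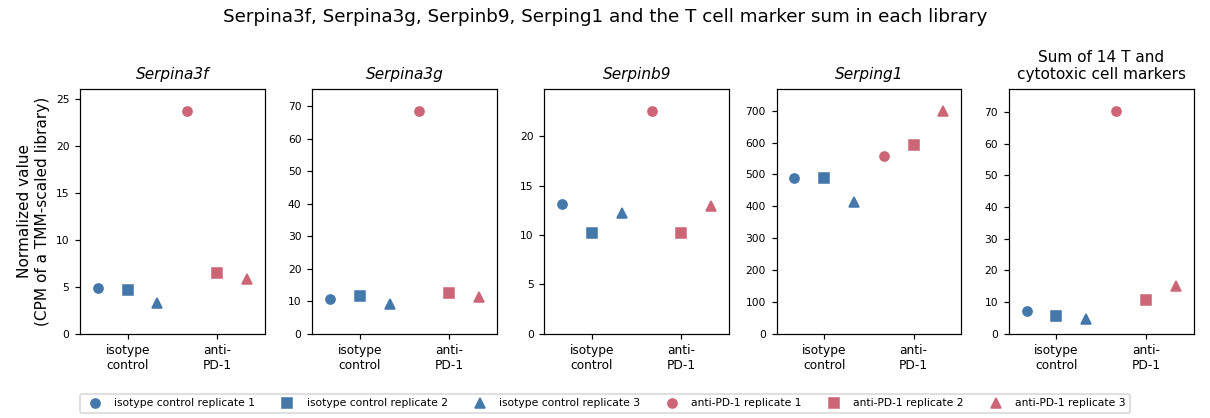
Values of Serpina3f, Serpina3g, Serpinb9 and Serping1 and the summed level of 14 T and cytotoxic cell markers in each library, in CPM of a TMM-scaled library, with axes that start at 0. Anti-PD-1 replicate 1 (red circle) is the highest library in the first 3 panels and the last, while all 3 anti-PD-1 values of Serping1 lie above the controls.

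Serping1 encodes the C1 inhibitor, which restrains the first complement proteases and plasma kallikrein. It was at 489, 488 and 413 units in controls, against 558, 594 and 699.8 with anti-PD-1, so every anti-PD-1 value lay above every control value. The means were 463 ± 43.1 and 617 ± 73.6 units (SD, n = 3). The log2 fold change was 0.41 ± 0.13 (SE), with a 95% interval of 0.1 to 0.72. Its p was the smallest of the family (limma adjusted p = 0.343) and did not pass the threshold, nor did it with edgeR (adjusted p = 0.349) or DESeq2 (0.0741). Without anti-PD-1 replicate 1 its log2 fold change was 0.48. Over all alternatives its adjusted p ran from 0.0741 to 0.682. Of the complement proteases C1ra, C1s1, Masp1 and Masp2, which it inhibits in part, all 4 had positive fold changes (0.06 to 0.18) and 0 were called, with C1ra at 259, 222 and 219 units in controls, against 230.2, 262 and 305 with anti-PD-1.

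Among the inhibitors of coagulation and fibrinolysis, the 5 tested members had a median log2 fold change of 0.11, with 4 positive and 1 negative. Serpinc1, antithrombin, was at 1365, 1098 and 1214 units in controls, against 1027, 1099 and 1281 with anti-PD-1 (log2 fold change -0.11 ± 0.15 SE, limma adjusted p = 0.819). Its 95% interval of -0.47 to 0.24 is among the narrow ones here. Serpind1, heparin cofactor II, was at 471, 370.0 and 390.1 units in controls, against 397, 468 and 548 with anti-PD-1 (adjusted p = 0.666). Serpinf2, the plasmin inhibitor alpha-2-antiplasmin, was at 556, 439 and 429 units and 425, 532 and 582. In each of these 3 genes anti-PD-1 replicate 3 was the highest anti-PD-1 library and the groups overlapped. Serpina10, which inhibits factor X together with protein Z, was at 140.0, 138 and 162 units in controls, against 122, 162 and 172 with anti-PD-1.

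Of 13 target proteases of coagulation and fibrinolysis, 11 had positive and 2 negative log2 fold changes (median 0.11) and 0 were called. Plg, plasminogen, was at 1869.6, 1637 and 1754 units in controls, against 1705, 2242 and 2553 with anti-PD-1, and F2, prothrombin, at 1088, 934 and 1076 and at 929.8, 1182 and 1240.2. As in the antitrypsin copies, replicate 3 held the highest values of both.

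The hormone carriers pointed in different directions. Serpina6, the corticosteroid-binding globulin, was at 183, 331 and 282 units in controls, against 302, 277 and 331 with anti-PD-1 (log2 fold change 0.23 ± 0.21 SE, limma adjusted p = 0.71). Serpina7, the thyroxine-binding globulin, was at 47.3, 82.4 and 111 units in controls, against 56.3, 53.6 and 55.6 with anti-PD-1. The 3 anti-PD-1 values lay close together (SD 1.42) between the lowest control and the other 2 (control SD 31.8). Its log2 fold change was -0.45 ± 0.27 (SE; adjusted p = 0.57), and leaving out isotype control replicate 1 gave -0.79 (adjusted p = 0.318), while leaving out isotype control replicate 3 gave -0.18 (adjusted p = 0.862). Isotype control replicate 1 was the lowest library for both carriers.

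The 2 other tested clade A genes had low levels. Serpina12, vaspin, an adipokine, was at 12.4, 6.33 and 19.7 units in controls, against 3.99, 10.2 and 19.3 with anti-PD-1, so its range within each group was wider than any shift between them (limma adjusted p = 0.87). Serpina11 was at 33.6, 22.6 and 27.8 units in controls, against 18.5, 31.1 and 32 with anti-PD-1 (adjusted p = 0.943).

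Serpins of matrix and tissue include the collagen chaperone HSP47, encoded by Serpinh1, which collagen-making cells need. It was at 26.7, 36.6 and 24.2 units in controls, against 41, 17.6 and 25.5 with anti-PD-1, with both extremes in the anti-PD-1 group (log2 fold change -0.12 ± 0.29 SE, limma adjusted p = 0.911). Col1a1, a collagen chain it folds, was at 60.4, 121 and 65.9 units in controls, against 153, 60.4 and 58.7 with anti-PD-1. In both genes the 2 highest libraries were anti-PD-1 replicate 1 and isotype control replicate 2. Of 18 measured genes of collagen chains and collagen folding, 13 had positive and 5 negative fold changes and 0 were called. Their median was 0.09, or -0.05 with anti-PD-1 replicate 1 left out. Serpine2, protease nexin-1, was at 3.78, 8.82 and 6.69 units in controls, against 15.6, 5.53 and 8.43 with anti-PD-1 (adjusted p = 0.648), and here too anti-PD-1 replicate 1 was the highest library. Its log2 fold change was 0.53, and 0.15 with that library left out. Serpinf1, the anti-angiogenic factor PEDF, was at 518, 492 and 469 units in controls, against 444, 531 and 574 with anti-PD-1 (adjusted p = 0.89), the smallest ratio of highest to lowest library (1.29) of the tested members.

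Clade B serpins protect cells from their own or from leaked granule and lysosomal proteases. All 5 tested ones had their lowest value in anti-PD-1 replicate 2, and 3 of them their highest in anti-PD-1 replicate 1. Serpinb9 was at 13.2, 10.2 and 12.2 units in controls, against 22.6, 10.2 and 12.9 with anti-PD-1 (log2 fold change 0.28 ± 0.27 SE, limma adjusted p = 0.733), and its fold change was -0.04 without anti-PD-1 replicate 1. Serpinb6b was at 3.24, 3.63 and 5.98 units in controls, against 8.31, 2.6 and 3.62 with anti-PD-1, and Serpinb6a at 26.9, 18.5 and 22.2 and at 28.7, 17 and 21.3. Gzmb, the protease that Serpinb9 inhibits, was at 0.432, 0.325 and 0.201 units in controls, against 2.35, 1.2 and 1.14 with anti-PD-1. Gzmb passed the filter through the anti-PD-1 group alone, which fixed its direction, so its test is not given here.

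The other 2 tested clade B genes did not share the high value of anti-PD-1 replicate 1. Serpinb1a, an inhibitor of neutrophil elastase, was at 10.6, 3.03 and 3.07 units in controls, against 4.9, 2.4 and 5.23 with anti-PD-1, so isotype control replicate 1 was the highest library. Summed neutrophil markers were 9.77 units in that library and 9.96 and 11.1 in the other controls, and their part in the Serpinb1a value was not tested. Serpinb8 was at 7.61, 6.11 and 6.54 units in controls, against 5.43, 3.06 and 6.42 with anti-PD-1 (log2 fold change -0.46 ± 0.26 SE, limma adjusted p = 0.547). Its fold change was -0.175 with anti-PD-1 replicate 2 left out. Elane, neutrophil elastase itself, was at 0.108 and 0.192 units in replicates 1 of both groups and at 0 in the other 4 libraries. Its value in isotype control replicate 1 is less than 3 reads, which are 0.162 units there. That in anti-PD-1 replicate 1 is little above 3 reads (0.144 units).

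The remaining 11 members fell under the filter, with 8 to 106 reads each over all 6 libraries and no library above 1.68 units. Only Serpina3i (up to 1.68 units), Serpina3c (1.46) and Serpini1 (1.39) reached 1 unit anywhere. The others were Serpina3b, Serpina3h, Serpina5, Serpina9, Serpinb1b, Serpinb2, Serpinb9b and Serpinb10, and 5 of the 11 had no read in at least 1 library, where the limit of 3 reads is 0.144 to 0.2 units. Serpina5, the protein C inhibitor, had 8 reads in all. Serpina3i had 1.68 units in anti-PD-1 replicate 1 and 0.0666 and 0.259 in the other anti-PD-1 libraries, against 0.486 to 0.866 in controls.

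**Figure D4:**
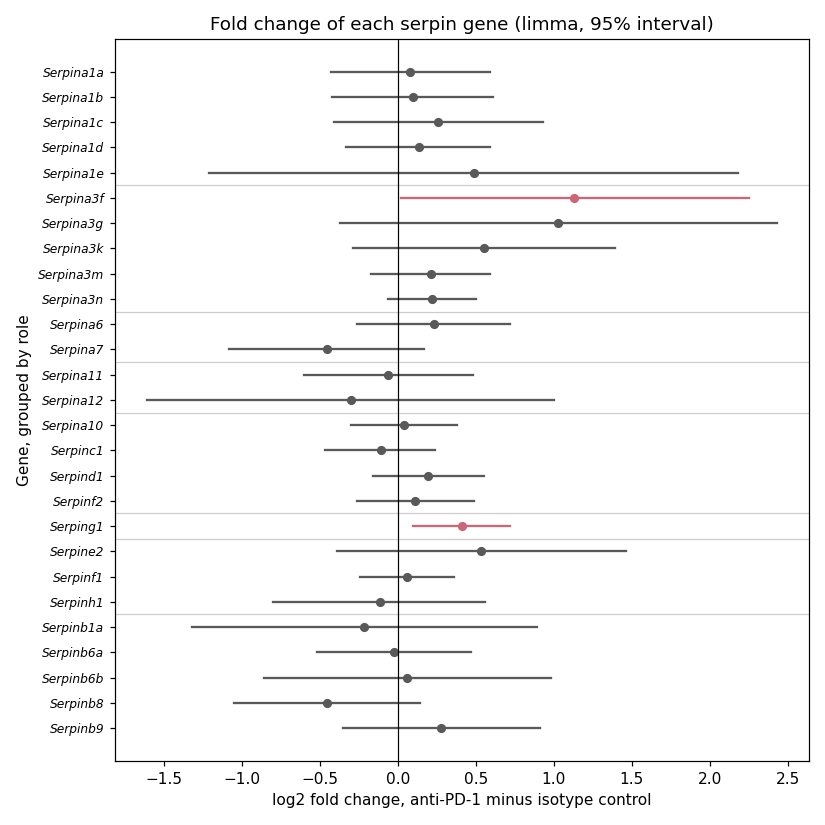
Log2 fold change (anti-PD-1 minus isotype control, on log2(value + 0.5)) of 27 of the 28 tested serpin genes with its 95% interval from limma. The 2 genes in red, Serpina3f and Serping1, are those whose groups do not overlap, and their intervals are the only ones that leave out 0.

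Across the 28 tested members the libraries fell into a pattern that the groups do not describe. Among the 15 members with a mean of at least 100 units, a division chosen after the values were seen, anti-PD-1 replicate 3 was the highest library for 12 and anti-PD-1 replicate 1 the lowest for 10. Over all 13990 tested genes these shares were 15.6% and 19.9%. The 5 antitrypsin copies, which share sequence, are among both the 12 and the 10. The order was not particular to serpins. F2 and Vtn also had their lowest value in anti-PD-1 replicate 1 and their highest in anti-PD-1 replicate 3, while Alb and Ttr did not. The median deviation of the 15 members from the control mean was -0.19 in anti-PD-1 replicate 1, 0.2 in replicate 2 and 0.39 in replicate 3 on the log2 scale. Among the 13 members under 100 units, anti-PD-1 replicate 1 was instead the highest library for 8, with a median deviation of 0.51, and replicate 2 the lowest for 6, with a median of -0.38. The summed level of 10 hepatocyte markers was 85869.9 units in anti-PD-1 replicate 1, 97070.4 in replicate 2 and 106815 in replicate 3, and 88578 to 111073 in controls. The part of hepatocyte share or immune cell share in this pattern was not tested.

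**Figure D5:**
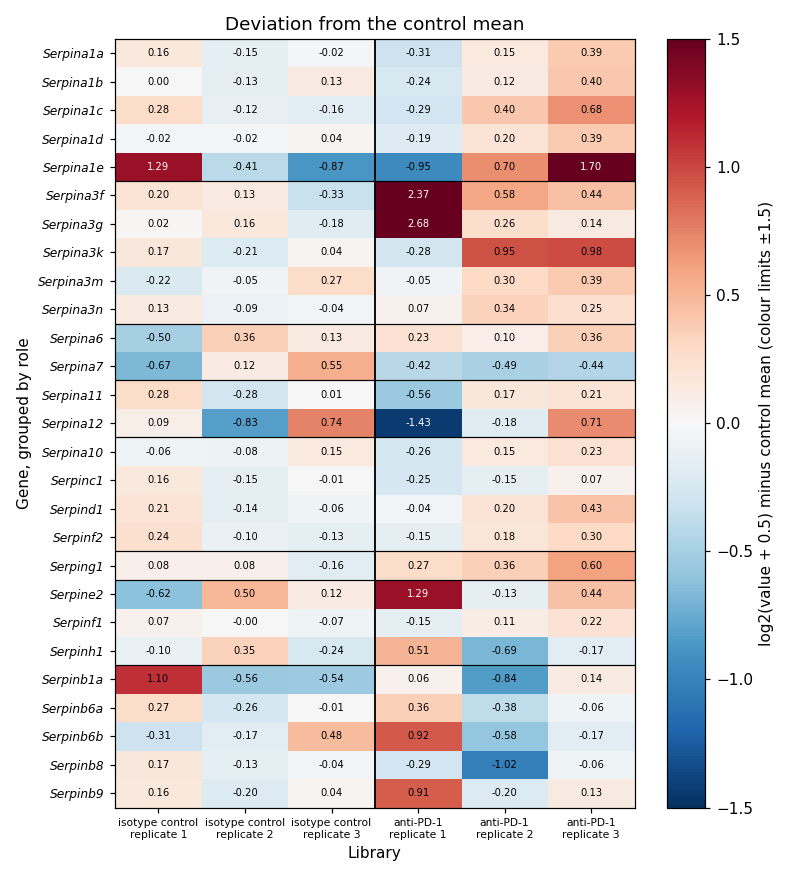
Deviation of the same 27 tested serpin genes (rows, grouped by role) from its control mean in each library (columns), on the log2(value + 0.5) scale, with red above and blue below and colour limits at ±1.5. Anti-PD-1 replicate 1 is blue for all 5 antitrypsin copies and Serpina3k, where replicates 2 and 3 are red, and it is deep red for Serpina3f, Serpina3g and Serpine2.

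Several factors drive serpin genes in hepatocytes, among them HNF4, C/EBP proteins, STAT3 downstream of interleukin-6 and STAT5 downstream of growth hormone. Of 21 such factors and receptors tested, 12 had positive and 9 negative fold changes (median 0.03). By limma 0 were called. At an unadjusted p under 0.05 by limma, 2 were higher and 6 lower, against 5.04% and 6.24% of all tested genes. DESeq2 called 2, against 1.83% of genes. Stat3 was at 102, 89 and 104 units in controls, against 132, 146 and 133 with anti-PD-1 (log2 fold change 0.48 ± 0.10 SE, limma adjusted p = 0.232). In 2 of the 21 genes, Stat3 among them, all anti-PD-1 values lay above the controls, as in 7.13% of tested genes. In 6, with Foxa2 and Bcl6 among them, all lay below, as in 9.98% of tested genes. Foxa2, a pioneer factor of liver genes, was at 12.3, 6.93 and 6.69 units and 3.94, 4.53 and 3.36 (adjusted p = 0.26), and Bcl6, a repressor tied to growth hormone signalling, at 47.3, 52.8 and 13 and at 8.6, 11.5 and 4.45 (adjusted p = 0.27). Stat5b was at 56.5 ± 4.44 units in controls and 56.2 ± 1.31 after anti-PD-1, and Ghr, the growth hormone receptor, at 661 ± 31.9 and 754 ± 156 (SD, n = 3).

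Other acute phase proteins showed 12 of 18 genes positive (median 0.14) and 0 called, with Saa1, serum amyloid A, at 11.9, 14.4 and 35.6 units in controls, against 14.6, 16.8 and 28.9 with anti-PD-1. Protease inhibitors of other families had 18 of 20 tested genes positive (median 0.15) and 0 called. Among them Mug1, a broad plasma inhibitor of the macroglobulin family, was at 4778, 4128 and 4002 units in controls, against 4365, 6946 and 7382 with anti-PD-1, with the same 2 high libraries as Serpina3k. Serpin cofactors and clearance receptors had 12 of 15 positive (median 0.15) and 0 called. Vtn, vitronectin, a plasma and matrix glycoprotein that binds serpins, was at 1624, 1225 and 1324 units and 1195, 1669 and 1798, and Sdc4, a heparan sulfate proteoglycan of the cell surface, at 262, 377 and 499 and at 462, 556 and 658 (limma adjusted p = 0.418). Lrp1, the receptor that clears serpin-protease complexes, was at 1632 ± 98.7 and 1737 ± 239 (SD, n = 3).

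Of 8 cathepsins 7 were positive (median 0.13) and 0 called. Ctss was the furthest, at 79.7, 45.6 and 41.2 units in controls, against 274, 53.3 and 82.5 with anti-PD-1, with the same high library as Serpina3g. Of 10 granule proteases 6 were in the table and only Gzmb was tested, which passed the filter through the anti-PD-1 group alone. Genes of glycoprotein quality control in the endoplasmic reticulum, where misfolded antitrypsin is held back, had 12 of 19 positive (median 0.02) and 0 called, with Derl2, a part of the degradation machinery, at 76.7, 70 and 75.2 units and 60.1, 53.9 and 61.8 (limma adjusted p = 0.295). The partners of hormone-carrying serpins had 8 of 11 tested genes positive (median 0.13) and 0 called. In 2 of them all anti-PD-1 values lay above the controls and in 1 below, against 7.13% and 9.98% of tested genes. Agt, angiotensinogen, was at 378, 448 and 481 units and 499, 493 and 640 (log2 fold change 0.32 ± 0.15 SE, limma adjusted p = 0.477). Ttr, transthyretin, another thyroid hormone carrier, was at 4305, 3279.6 and 3534 units and 2777, 2489 and 3069 (log2 fold change -0.41 ± 0.20 SE, limma adjusted p = 0.485).

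In these 11 lists, genes at an unadjusted p under 0.05 by limma numbered 6 higher, Gzmb among them, and 9 lower. Over all tested genes, 5.04% were higher and 6.24% lower at that p, and DESeq2 called 1.83%. DESeq2 called 2 of the transcription factors and inducers, 0 genes of 9 other lists, and Gzmb, whose direction its passage through the filter fixed. Without anti-PD-1 replicate 1 the list medians were 0.23 for coagulation proteases, 0.26 for complement proteases, 0.06 for cathepsins, 0.33 for cofactors and clearance receptors, 0.23 for acute phase proteins and 0.07 for glycoprotein quality control, each over 1.5 times away from the value with it.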

How the data were processed

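The authors deposited a normalized signal, CPM of a TMM-scaled library, for each of 21512 genes in 6 libraries; the scaling was read from the values. Bowtie2, edgeR, RSEM 1.3.0, Trimmomatic 0.38 and the build GRCm39 are listed, with no roles, per the submitters' processing notes. Libraries were rRNA-depleted and directional, per the labels' protocols. In each library 100% of values were whole multiples of that of 1 read, within 0.001 read, so whole counts, called reads, were recovered from the values the authors deposited. Whether these are rounded estimates cannot be seen from them. Nothing in the labels says whether mice were housed or prepared together, so p-values measure only the spread between these libraries. Symbols came from GENCODE M21 names (21407 of 21512 matched). Transcript comparison used M21 on GRCm38, an older build, with mafft 7.526 for coding sequences. It gave the transcript lengths used for levels per kilobase too.

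limma 3.58.1 (R 4.3.3) with a mean-variance trend was fitted to the 13990 genes that reached 1 unit in 3 or more libraries, on log2(value + 0.5), two-sided, with Benjamini-Hochberg adjustment over all of them and a threshold of 0.05. This scale understates changes of low genes. Alternatives were other pseudocounts, filters and scaling, limma without trend, edgeR 4.0.16 and DESeq2 1.42.0 on recovered reads, a replicate block, and each library left out. The scripts were tested on simulated data. The 95% intervals are those of the limma fit and reflect the spread between mice, while the limits of 3 reads cover counting error only. Described were the 15 highest members, those with an unadjusted p under 0.05, those with groups that do not overlap and 13 listed members. Values of 1 tested member and of 1 listed gene are not reported here, though both stay in the fits and counts. From each list up to 3 genes with the smallest p and some listed ones could be named. Members and lists were chosen with earlier results of these data known.

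Replicate numbers 1 to 3 come from the labels' replicate field, which does not say what they mark. Same-numbered libraries of both groups deviated together (r across genes of 0.149, 0.135 and 0.251, each over 0.1). Those with unlike numbers had r of -0.219 to 0.063. These r depend on each other, because deviations were taken from means of 3 libraries. The main fit took the libraries as unpaired, and the replicate block was an alternative that paired them by number. This pairing was read from the same values alone, so the block's calls are no separate support for it. The replicate block called 0.286% of genes and 0 members.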

Additional observations from a re-analysis of the deposited data

How the results depend on the processing

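No member was called under any of the 16 alternatives, with a lowest adjusted p of 0.0741 (Serping1, DESeq2), and 404 of 430 gene values under an alternative kept their sign. Reversals outside the left-out libraries were Serpina10 at -0.011 and Serpinf1 at -0.015 with quantile normalization, and Serpinb6a at 0.003 with recomputed edgeR factors and 0.01 with DESeq2. With 1 library left out at a time, the log2 fold changes of the 13 members that reversed ranged as follows: Serpina10 -0.056 to 0.19, Serpina11 -0.204 to 0.188, Serpina12 -0.808 to 0.263, Serpina1a -0.079 to 0.271, Serpina1b -0.057 to 0.259, Serpina1e -0.124 to 1.202, Serpina6 -0.016 to 0.412, Serpinb1a -0.494 to 0.334, Serpinb6a -0.218 to 0.15, Serpinb6b -0.377 to 0.377, Serpinb9 -0.039 to 0.518, Serpinf1 -0.02 to 0.165, Serpinh1 -0.428 to 0.17. The summed antitrypsin copies ranged from -0.02 to 0.38. The family's share of the total differed by 0.16 to 0.6 percentage points, lowest without anti-PD-1 replicate 3 and highest without replicate 1. The cause was not tested. The replicate block called 0 members, as did the fit without it, and over all tested genes it raised the calls from 1 to 40, while DESeq2 made 256. With 3 mice a group, the exact test of a sum cannot go below 0.1.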

Other observations

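Serpina4-ps1, the 1 serpin pseudogene in the table, which the rule for members leaves out, was at 1.67, 0.541 and 1.31 units in controls, against 0.048, 1.13 and 1.97 with anti-PD-1, in the order of the replicate numbers. Its lowest value was in anti-PD-1 replicate 1 and its highest in anti-PD-1 replicate 3, the same 2 libraries as for the antitrypsin copies. That lowest value is 1 read, below the limit of 3 reads there (0.144 units). Cps1, the first enzyme of the urea cycle and chosen after its values were seen, was at 7049.6, 7045 and 6444 units in controls, against 6993, 10155 and 10256 with anti-PD-1, so replicates 2 and 3 were the high libraries there as in Serpina3k.

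By limma 0 genes of the 10 cell type marker lists were called. At an unadjusted p under 0.05 by limma, 5 Kupffer and 2 cholangiocyte genes were lower and 1 hepatocyte gene higher. Over all tested genes 6.24% were lower and 5.04% higher. DESeq2 called 3 Kupffer genes, against 1.83% of all genes. Of the 14 T and cytotoxic cell genes 3 were tested (Cd3e, Cd8a and Gzmb). All 3 were under 1 unit in every control and passed the filter through the anti-PD-1 group alone, so their direction was fixed by the filter and their limma and DESeq2 results are not counted. Resident Kupffer cell genes had 6 of 10 negative and 4 positive (median -0.32, highest 0.77). Cd163 was at 17.3, 6.6 and 6.38 units in controls, against 1.44, 0.2 and 0.31 with anti-PD-1 (limma adjusted p = 0.129). Timd4 was at 3.88, 1.73 and 3.57, against 0.865, 0.399 and 0.259 (limma adjusted p = 0.215). The summed level of the 10 Kupffer genes was 503, 247 and 287 units in controls, against 559.6, 276 and 286 with anti-PD-1, so the groups overlapped. Stellate cell and fibroblast genes had 8 of 11 positive (median 0.06, and -0.2 without anti-PD-1 replicate 1), endothelial genes 7 of 10 (median 0.06), cholangiocyte genes 2 of 7 (median -0.53) and hepatocyte genes 7 of 10 (median 0.15, and 0.26 without that library). All 8 tested monocyte and 4 tested neutrophil genes were positive (medians 0.64 and 0.73), but without anti-PD-1 replicate 1, the library with the high marker sums, the medians were 0 and 0.15. Keratinised epithelium and exocrine pancreas, which express other clade B and clade I serpins, had 1 tested gene each, with summed levels of 0.999 to 4.55 and 5.33 to 12.7 units.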
